A study of Homo sapiens with 54 samples.

Results

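KhES-1 is a human embryonic stem cell (ESC) line, and the comparison described here is between KhES-1 cells cultured for 30 days with FGFC and KhES-1 cells cultured for 30 days with bFGF. FGFC is a heat-stable chimeric protein made of parts of human FGF1 and FGF2, and bFGF (FGF2) is the factor normally added to such cultures. The arrays were chosen by their sample labels and are 4 of the 54 arrays of the series, with 1 culture for each FGF and 2 arrays for each culture. Both cultures were at passage 40 and received 5 ng/mL of their FGF in the medium named for KhES-1, on mouse embryonic fibroblasts (MEF) as feeder cells. They were preceded by a KhES-1 pre-culture at passage 30 with 5 ng/mL of bFGF, also measured on 2 arrays, whose values are given beside those of the 30-day cultures. Since each condition is 1 culture of 1 cell line, duplicate arrays show the error of measurement and not the spread between cultures, and no test between FGFC and bFGF within KhES-1 was possible.

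Human ESCs need FGF signalling through ERK, together with activin or Nodal signals, to stay undifferentiated. When these signals weaken, a default course of the cells is anterior neuroectoderm, the tissue that forms the forebrain and the eye field. LHX2, RAX, PAX6, EMX2 and FEZF1 are transcription factors of this early forebrain and eye territory, NR2F2 is a nuclear receptor of the developing brain and of mesenchyme, DKK1 is a secreted inhibitor of WNT signalling, and DLK1 is an imprinted, membrane-bound relative of the Notch ligands.

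The genes that the result turns on are LHX2, FEZF1, RAX and EMX2, so the 250 bases before the RefSeq transcription start of each are shown (GRCh38.p14, 5′ to 3′ on the strand of the gene), as the stretch of their promoters nearest the start. The intervals are chr9:124011518-124011767 on the plus strand for LHX2, chr7:122304751-122305000 on the minus strand for the upstream one of the starts listed for FEZF1, chr18:59273455-59273704 on the minus strand for RAX and chr10:117542496-117542745 on the plus strand for EMX2. Capitals mark the letters TAATTA, a core bound by many homeodomain proteins, and CCAAT, a common promoter element. Both strands were searched, the reverse of CCAAT being ATTGG, and the marked letters do not overlap.
LHX2: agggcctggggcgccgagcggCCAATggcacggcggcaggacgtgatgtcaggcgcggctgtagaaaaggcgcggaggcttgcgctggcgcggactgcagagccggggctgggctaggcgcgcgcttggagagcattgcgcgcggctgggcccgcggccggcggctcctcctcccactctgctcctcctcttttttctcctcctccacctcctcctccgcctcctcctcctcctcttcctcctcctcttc
FEZF1: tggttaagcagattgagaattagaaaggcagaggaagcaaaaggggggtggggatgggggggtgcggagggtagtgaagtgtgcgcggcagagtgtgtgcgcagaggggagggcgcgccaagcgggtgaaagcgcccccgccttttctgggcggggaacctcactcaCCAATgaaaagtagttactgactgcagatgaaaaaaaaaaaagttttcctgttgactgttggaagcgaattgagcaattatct
RAX: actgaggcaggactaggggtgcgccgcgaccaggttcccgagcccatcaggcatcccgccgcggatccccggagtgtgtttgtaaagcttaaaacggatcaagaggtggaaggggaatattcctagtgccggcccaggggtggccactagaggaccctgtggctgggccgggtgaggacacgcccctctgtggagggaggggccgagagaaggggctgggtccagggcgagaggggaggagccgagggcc
EMX2: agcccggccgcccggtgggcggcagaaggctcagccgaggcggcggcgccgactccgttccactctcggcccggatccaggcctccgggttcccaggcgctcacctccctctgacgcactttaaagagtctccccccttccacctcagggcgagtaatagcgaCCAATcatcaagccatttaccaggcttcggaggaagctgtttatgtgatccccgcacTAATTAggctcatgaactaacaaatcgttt
CCAAT was found once in the windows of LHX2, FEZF1 and EMX2, and 32.0% of the 35116 windows of this length in the table hold it on either strand. TAATTA was found in the window of EMX2 alone among the 4 genes, 30 bases before the start, and 4.35% of all windows hold it. These matches describe letters only.

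Signals are given as log2 of the background-subtracted intensity minus the 75th percentile of the probes of the array, so that 0 is a probe at that percentile and each step of 1 is a factor of 2. The share of the 42405 probes well above background, by the mark of the scanner software, was 66.7% and 67.3% on the bFGF arrays, 69.0% and 70.1% on the FGFC arrays and 68.5% and 68.6% on those of the pre-culture. The lowest probe level so marked lay between -6.87 and -6.65 on the 4 arrays of the 30-day cultures. Folds given as "at least" use this level as their floor. Such a level can average marked and unmarked spots. The lowest single marked spots, at intensities of 10.0 to 13.0, lay higher, so these folds are not strict lower bounds. The pre-culture and bFGF arrays shared a slide and the FGFC arrays lay on another, so that slide and FGF cannot be told apart here. As a measure of duplicate error, 90 of the 27488 probes well above background on both bFGF arrays, 213 of 28569 on both FGFC arrays and 106 of 28181 on both pre-culture arrays differed 2-fold or more between the 2 arrays of the culture.

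Genes of the pluripotent state were measured at similar levels in both cultures. All 24 genes of a pluripotency list were well above background on all 4 arrays, none was called different, and their median difference, FGFC minus bFGF, was -0.019 on the log2 scale. POU5F1 (OCT4), the central transcription factor of the pluripotent state, was at 8.52 and 8.57 with bFGF and at 8.87 and 8.77 with FGFC. NANOG was at 4.92 and 4.99 with bFGF and at 4.81 and 4.94 with FGFC. SOX2 was at 5.75 and 5.82 with bFGF and at 5.77 and 5.85 with FGFC. The ranges of the arrays overlapped for NANOG and SOX2, whereas POU5F1 was slightly higher on both FGFC arrays, by 0.27 (-0.012 on its dimmer probe). The differences of the other named pluripotency genes were -0.034 for TDGF1 (CRIPTO), a Nodal co-receptor, 0.16 for TERT, the catalytic subunit of telomerase, -0.28 for ZFP42 (REX1) and 0.13 for DNMT3B, a de novo DNA methyltransferase. The differences of the list ranged from -0.39 for PRDM14, a transcription factor of the pluripotent state, to that of POU5F1.

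Few probes differed. A probe was called when it was well above background on both arrays of at least 1 culture and differed 2-fold or more, in the same direction, between the arrays numbered 1 and between the arrays numbered 2. Of 28850 probes well above background in a culture, 87 were called (0.302%), 58 higher (0.201%) and 29 lower (0.101%) with FGFC. With 1 probe kept for each gene, chosen as the brightest on average in the whole series, 37 of 15575 genes were called (0.238%), 19 higher (0.122%) and 18 lower (0.116%). The smaller of the 2 array differences was 1.00 for the called probe nearest the limit and 0.995 for the nearest probe outside it. Most called probes were dim. All but 5 of the 58 higher and all but 7 of the 29 lower probes were below the background mark on at least 1 array. Of the 58 higher probes 51 were not well above background on either bFGF array, and of the 29 lower probes 19 were not on either FGFC array. The median level of the 58 higher probes was -6.55 with bFGF and -5.08 with FGFC, and that of the 29 lower probes was -4.74 with bFGF and -6.51 with FGFC. Only 4 probes were called after normexp background correction, which here adds an offset of 50 to every intensity, and these were probes of LHX3, DLK1 and ELFN1 and an unnamed probe.

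**Figure D1:**
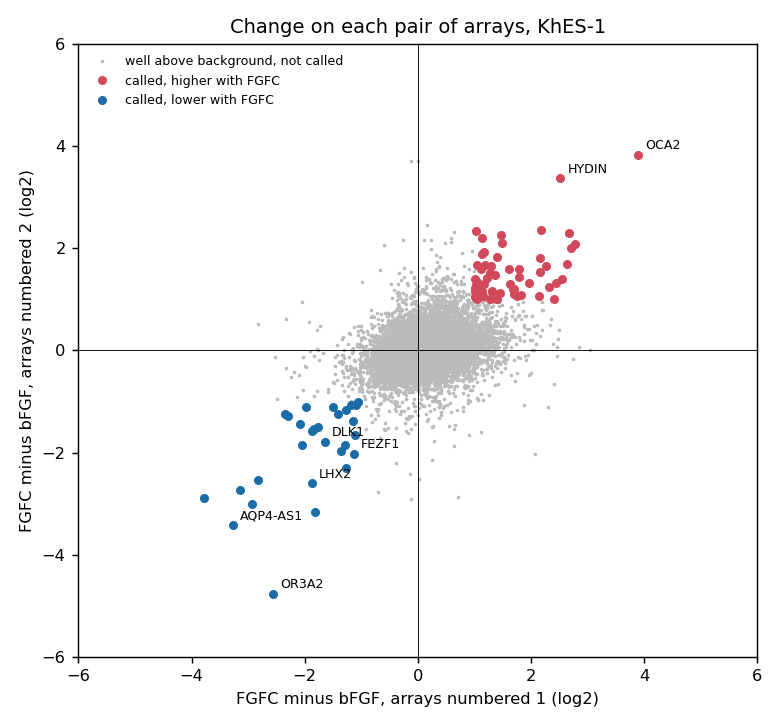
Differences between FGFC and bFGF (log2) of the probes well above background in KhES-1, with the pair of arrays numbered 1 on the x axis and the pair numbered 2 on the y axis. The 58 called higher and 29 called lower probes lie in opposite corners, with LHX2, FEZF1 and DLK1 among the lower ones, and most other probes form a cloud around 0.

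**Figure D2:**
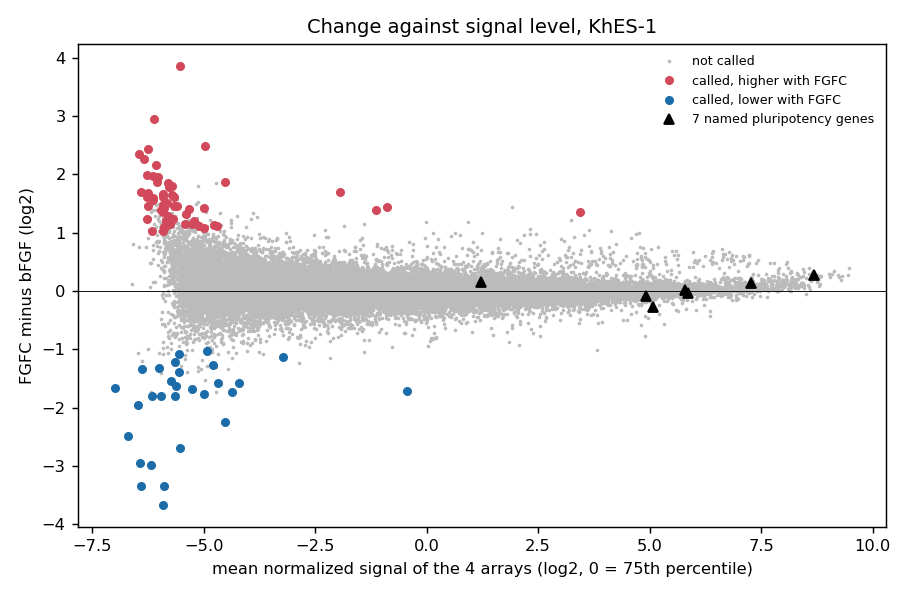
Mean normalized signal of the 4 arrays of the 30-day cultures (log2, x axis) against the difference FGFC minus bFGF (log2, y axis), with called probes coloured and the 7 named pluripotency genes as triangles. Called probes lie mainly at the dim end, apart from a few such as DLK1 and LHX3, and the pluripotency genes lie near 0 at high signal.

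Among the lineage lists, that of the forebrain and eye field held the most called genes. Of the 30 genes of this list 21 were well above background in a culture. Of these 6 were called, LHX2, FEZF1, RAX, PAX6, EMX2 and NR2F2, all lower with FGFC, where 0.116% of all genes were called lower. LHX2 and FEZF1 were given beforehand as markers of this comparison, and the list was chosen with earlier results of these data known. The count is therefore a description and no independent support. Of the 21 genes 14 lay below 0 and 7 above, and their median difference was -0.33, against 0.0039 over all 15575 genes. EMX2, PAX6, NR2F1 and NR2F2 passed the background filter through the bFGF culture and SIX3 through the FGFC culture, and 16 genes were well above background on all 4 arrays, among them LHX2, FEZF1 and RAX. The other 9 genes of the list, among them SOX1, SIX6 and NKX2-1, were not well above background on any of the 4 arrays. In bulk RNA, fewer cells of a type and less RNA per cell cannot be told apart.

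LHX2, a LIM-homeodomain factor needed for the eye and the cortex, was at -3.66 and -3.14 with bFGF and at -5.54 and -5.74 with FGFC. In the pre-culture it was at -4.62 and -3.42. The 2 FGFC arrays were the lowest of the 6, and the pre-culture overlapped the bFGF culture. The difference was -2.24 ± 0.51 (SD of the 2 array differences), a 4.72-fold lower signal with FGFC. Arrays of the 2 cultures were paired by their number only. This SD and the SDs given below would change with another pairing and are a rough measure of error. As background-subtracted intensities the LHX2 levels are 52.6 and 65.4 with bFGF and 11.7 and 12.5 with FGFC. The lowest single spot well above background had an intensity of 10.0 to 13.0 on these arrays.

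FEZF1, a zinc finger repressor of the forebrain and olfactory system, was at -4.17 and -3.63 with bFGF and at -5.30 and -5.65 with FGFC. The pre-culture, at -5.64 and -5.04, overlapped the FGFC culture, so that it was the bFGF culture that stood apart. The difference between FGFC and bFGF was -1.58 ± 0.63, or 2.98-fold. RAX, the retina and anterior neural fold homeobox gene, was at -3.67 and -3.18 with bFGF, at -4.95 and -5.05 with FGFC and at -4.53 and -4.57 in the pre-culture. Here the 3 cultures did not overlap, with bFGF highest and FGFC lowest, and FGFC was lower than bFGF by -1.57 ± 0.41. A dimmer probe of RAX differed by only -0.35 in the same direction.

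EMX2, a homeobox gene of the dorsal forebrain, was at -5.65 and -5.33 with bFGF and below the background mark on both FGFC arrays, at -7.70 and -7.19. By the floor of the lowest marked probe level its signal was at least 2.45-fold lower with FGFC, the measured means being -5.49 and -7.44. As intensities EMX2 was at 13.2 and 14.3 with bFGF. The lowest single marked spots of the FGFC arrays were at 10.0 and 10.5, a limit that gives a smaller fold. In the pre-culture EMX2 was at -7.05 and -6.65, also below the background mark on both arrays and not far from the FGFC level. PAX6, the eye and forebrain paired-box gene, was at -4.94 and -5.19 with bFGF and not well above background on either FGFC array, at -7.23 and -6.49, which makes it at least 2.89-fold lower. A second PAX6 probe was also called, at least 5.49-fold lower, and the remaining one was not well above background on any array. NR2F2 was at -4.33 and -4.00 with bFGF, at -5.47 and -5.39 with FGFC and at -6.69 and -5.53 in the pre-culture, a difference of -1.26 ± 0.18 between FGFC and bFGF.

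Further genes of the list lay near the limit without being called. NR2F1, the relative of NR2F2, differed by -2.13 on the arrays numbered 1 and by -0.92 on those numbered 2. OTX1, a head homeobox gene, was at -3.17 and -3.28 with bFGF and at -4.47 and -4.08 with FGFC, a difference of -1.05. Brighter members of the territory differed little, OTX2 by -0.079, ZIC2 by -0.033, SOX3 by 0.15 and SFRP2 by 0.21. HESX1 was lower by -0.43. Others were higher with FGFC. SIX3, which was not measured through the bFGF culture, was at least 1.73-fold higher. SP8 was higher by 0.70, almost wholly on the arrays numbered 1. The list therefore did not move as one, and its summed linear level, which its bright members set, was 30.7 and 31.7 with bFGF and 30.9 and 31.3 with FGFC. Under normexp correction none of the 6 genes was called and the directions stayed the same, with LHX2 at -0.72, FEZF1 and RAX at -0.51, NR2F2 at -0.34, PAX6 at -0.18 and EMX2 at -0.087.

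**Figure D3:**
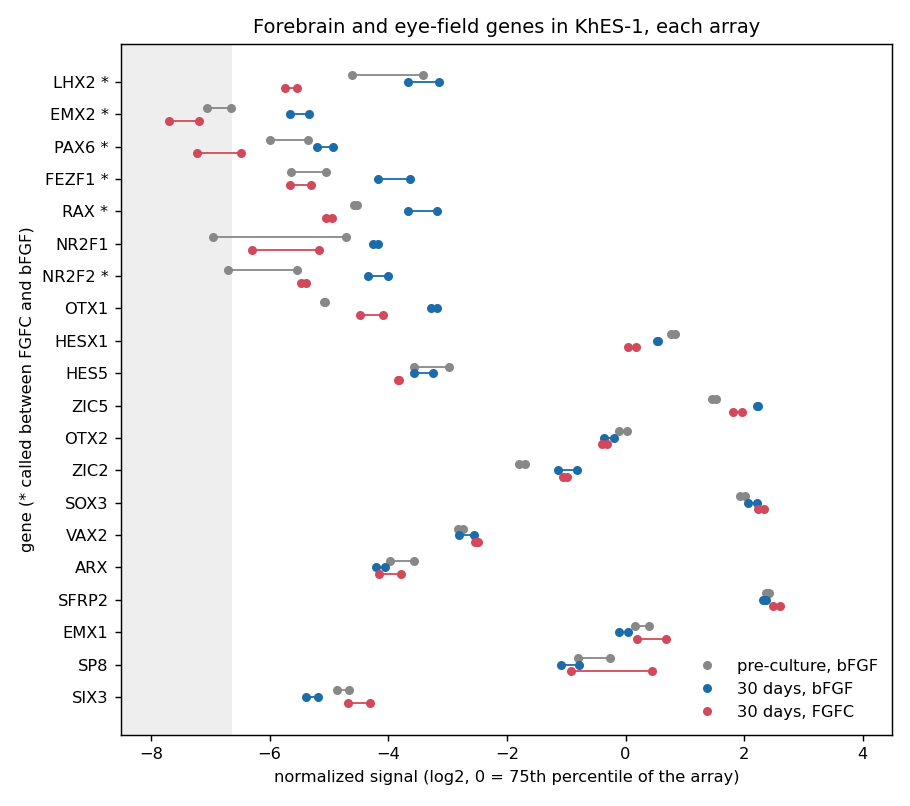
Normalized signal (log2, x axis) of 20 of the 21 forebrain and eye-field genes that were well above background in a KhES-1 culture, ordered by their difference, with 1 point for each array, a line joining the 2 arrays of a culture and stars for called genes. The grey zone lies below the highest of the 4 lowest levels well above background. In the upper rows the FGFC points (red) lie left of the bFGF points (blue), and in the lower rows they lie together or, for SIX3, in the reverse order.

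Neuronal genes were not called. Of 22 genes of neurogenesis and neurons 15 were measured, with a median difference of -0.12. The largest were STMN2, a microtubule regulator of growing axons, which was at -0.56 and -0.53 with bFGF and at -1.33 and -1.22 with FGFC, and MAP2, a dendritic microtubule protein, with a difference of -0.57. Among 9 measured genes of hindbrain and posterior identity, MEIS2, a partner of HOX proteins that is also active in the forebrain, was called. It was at -6.01 and -5.43 with bFGF and not well above background with FGFC, at -7.42 and -6.67. By the floor of the lowest marked probe level MEIS2 was at least 1.96-fold lower. As intensities it was at 10.4 and 13.4 with bFGF. The lowest single marked spots of the FGFC arrays, at 10.0 and 10.5, give a smaller fold. None of the measured genes of neural crest and placode (9), mesendoderm and primitive streak (16), heart and smooth muscle (15), yolk sac and liver (7) or amnion and trophoblast (10) was called. The furthest of these were GATA3, a trophoblast and amnion factor, at least 2.11-fold lower and MYL4, an atrial myosin light chain, at least 2.14-fold higher, each with less than a 2-fold difference on 1 pair of arrays. Of 14 differentiation markers chosen by the study itself, 5 were measured and PAX6 alone was called.

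DLK1 was represented by 2 probes that differed in size. On the probe A_24_P236251 the signal was 0.29 and 0.55 on the bFGF arrays, -1.35 and -1.25 on the FGFC arrays and -0.74 and -0.31 in the pre-culture, so that the 3 cultures did not overlap and FGFC was lowest. The difference of -1.72 ± 0.10, or 3.29-fold, was the brightest of the called decreases and the only one of them still called after normexp correction. On the other probe, A_33_P3217559, which was dimmer in the bFGF culture but had the higher mean over all 54 arrays, DLK1 was at -1.65 and -1.46 with bFGF and at -2.22 and -2.40 with FGFC, a difference of -0.76 ± 0.26 that was not called. The direction was the same on both probes, and by the second one DLK1 was still the lowest of 21 measured imprinted genes. Its neighbour MEG3 differed by 0.061, IGF2 by -0.30 and H19 by 0.11.

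Of the signalling lists, WNT signalling held 1 called gene. DKK1 was at -4.33 and -3.90 with bFGF and at -6.41 and -5.34 with FGFC, with the pre-culture between them at -5.03 and -4.97, and the difference was -1.77 ± 0.45. SP5, a direct WNT target, was at -1.44 and -1.74 with bFGF and at -3.44 and -2.04 with FGFC, so that its difference of -1.15 came mainly from the first FGFC array. FRZB, a secreted WNT antagonist, was lower by -0.75 and LEF1, a WNT effector, by -0.58, while AXIN2, the usual feedback target, was 0.23 higher, and the median of the 23 measured genes was -0.044.

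Targets of FGF signalling were at similar levels with both FGFs. None of 19 measured FGF and ERK target and feedback genes was called and their median difference was 0.0059. DUSP6, the ERK phosphatase, was at 1.93 and 1.87 with bFGF and at 1.88 and 1.96 with FGFC. SPRY2 and SPRY4, inhibitors of receptor tyrosine kinase signals, differed by -0.11 and -0.081, ETV4 and ETV5, ETS factors induced by FGF, by 0.23 and 0.13, and EGR1 by 0.16. The lowest of these genes was SPRED2, an ERK inhibitor, at -0.58. Among 18 measured FGF ligands and receptors FGF18 was lowest, at -1.01 without being called, FGFR1 differed by -0.0062, and FGF2 itself, made by the cells, by -0.024.

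Nodal and activin (18 genes), BMP (16), Notch (17), immediate-early genes (21), cell cycle (23), hypoxia and glycolysis (22), cholesterol synthesis (24), amino acid response and ER stress (23), adhesion (19) and naive state (16) had no called member and medians between -0.053 and 0.086. Of 18 p53 target and apoptosis genes 16 were lower with FGFC, with a median of -0.21 and CDKN1A, the cell cycle inhibitor p21, lowest at -0.53. All 10 metallothioneins, metal-binding stress proteins, were higher with FGFC, by 0.069 to 0.54, although without a call. Of 24 feeder and fibroblast genes 20 were measured and none was called, the defining matrix genes COL1A1 and COL1A2 differed by -0.22 and -0.19, and COL3A1 and LUM were not well above background on any array. TWIST2, a dim mesenchymal factor, was at least 1.72-fold higher without a call. The linear levels of the list summed to 149 and 156 on the bFGF arrays, to 135 and 137 on the FGFC arrays and to 126 and 128 on those of the pre-culture, relative to the 75th percentile. The summed level was thus higher in the bFGF culture, as were the 6 called forebrain genes. The members did not move together, with a median difference of -0.035, 12 genes below 0 and 8 above, and VIM lowest at -0.57. Whether feeder RNA had a part in the forebrain differences was not tested.

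**Figure D4:**
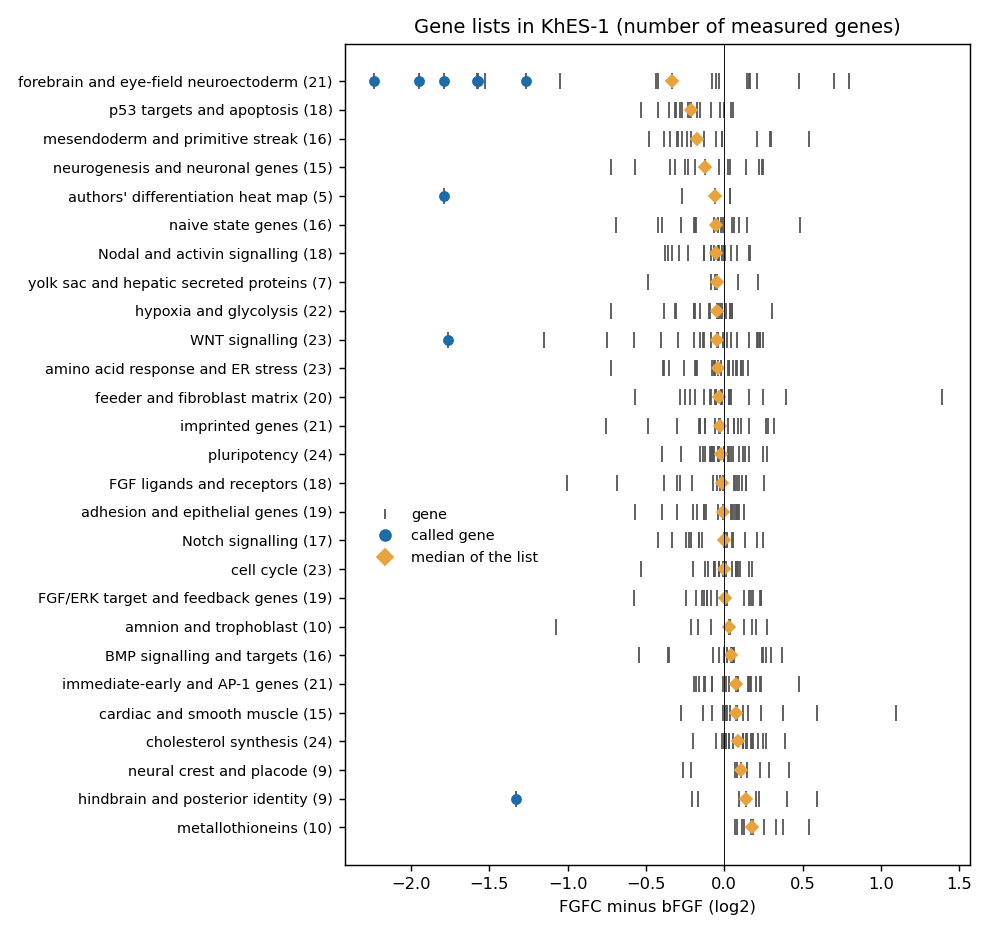
Difference FGFC minus bFGF (log2, x axis) of each measured gene of 27 lists, which are named on the y axis with their number of measured genes, with called genes as blue dots and list medians as diamonds. Called genes stand in the forebrain and eye-field list (6, where FEZF1 and RAX coincide), in the study's marker list (PAX6 again) and, with 1 each, in the WNT and hindbrain lists, all on the lower side.

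Further called decreases were outside the lists. OR3A2, an olfactory receptor, was at -5.08 and -3.10 with bFGF and not well above background with FGFC, and it was at least 6.49-fold lower with a wide SD of 1.56. AQP4-AS1, an antisense RNA of the aquaporin 4 locus, was at least 4.14-fold lower and LOC100130502 at least 4.28-fold lower. MAB21L4 and LOC648149, also not well above background with FGFC, were at least 3.27-fold and 2.86-fold lower. CHRNA2, a nicotinic receptor subunit, was 1.55-fold lower by the floor of the lowest marked probe level. Its bFGF intensities of 7.61 and 9.93 lay below the lowest single marked spots of those arrays, at 13.0 and 11.0. No bound on the fold of CHRNA2 can therefore be given. GALP, a hypothalamic neuropeptide, differed by -1.68 ± 0.21. In the pre-culture OR3A2 and AQP4-AS1 were at -7.67 and -7.56, near their FGFC means of -7.75 and -8.08, and all of these levels were below the background mark.

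Among increases, TNFRSF1B, a receptor for tumour necrosis factor, was at -7.73 and -6.56 with bFGF and at -5.09 and -4.87 with FGFC and so at least 3.08-fold higher. A second TNFRSF1B probe was not well above background on any array. HOXC6, a homeobox gene of the trunk, was at least 2.99-fold higher, KIF12, a kinesin, at least 2.88-fold, IL17A, a cytokine of T cells, at least 2.57-fold, TPH2, the neuronal enzyme of serotonin synthesis, at least 2.79-fold, and LCE2D, a protein of the skin barrier, at least 3.06-fold. LOC728637, LOC284669 and LOC255187 were at least 2.67-fold, 2.85-fold and 2.37-fold higher. All of these were below the background mark on both bFGF arrays, and the second probes of LOC728637, TPH2 and LOC255187 were not well above background on either FGFC array. The lowest single marked spots of the bFGF arrays, at intensities of 13.0 and 11.0, give smaller folds for these genes. IL17A, for example, was at an intensity of 14.8 on each FGFC array. OCA2, HYDIN and SPRR2D were at least 8.63-fold, 4.16-fold and 5.59-fold higher on probes that were not the brightest of their genes, and are named here after their values were seen.

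Of the named increases, 3 were well above background on all 4 arrays. The transcript FLJ46120 was at -1.83 and -1.84 with bFGF and at -0.56 and -0.33 with FGFC, a difference of 1.39 ± 0.17. ACBD4, an acyl-CoA binding protein, and LHX3, a pituitary and motor neuron homeobox gene, were higher by 1.44 and 1.36. Duplicate arrays lay further apart for these genes, with ACBD4 at -1.18 and -2.06 with bFGF and at 0.49 and -0.85 with FGFC, and LHX3 at 3.48 and 2.04 and at 4.53 and 3.72. The cultures did not overlap, but the pre-culture overlapped FGFC for both genes, LHX3 also overlapping bFGF. A second probe of ACBD4 differed by 0.40, and one of LHX3 was not well above background in either 30-day culture.

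Against the pre-culture, 4 of 21 measured forebrain and eye-field genes were called with bFGF and 0 of 17 with FGFC. The same rule called 204 of 15511 genes between bFGF and the pre-culture (1.32%, 0.883% higher with bFGF) and 176 of 15646 between FGFC and the pre-culture (1.12%, 0.639% higher with FGFC), and both comparisons share the pre-culture arrays. The 4 genes, all higher with bFGF than in the pre-culture, were FEZF1 by 1.44, OTX1 by 1.84, and EMX2 and NR2F2. EMX2 and NR2F2 were not well above background on either pre-culture array and were measured only through the bFGF culture. They were not among the 17 genes and could not have been called with FGFC. With FGFC the differences from the pre-culture were -0.14 for FEZF1 and 0.80 for OTX1. LHX2 differed from the pre-culture by 0.62 with bFGF and by -1.62 with FGFC, neither being called, and the difference between these 2 counts of genes was not tested. Of the 29 probes called lower with FGFC than with bFGF, 24 had a pre-culture level nearer that of FGFC and 5 nearer that of bFGF. Of the 58 called higher the numbers were 36 and 22. Of the 29 lower probes 19 were not well above background on either FGFC array. Most of these 19 also lacked the mark on both pre-culture arrays, among them EMX2, MEIS2, OR3A2, AQP4-AS1, CHRNA2, MAB21L4 and KCNA1. For most of the 24 probes the nearness to FGFC therefore compares readings at background. The 29 were also selected for being higher with bFGF. The pre-culture arrays shared the slide of the bFGF arrays.

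Of 18 measured genes of mesendoderm and primitive streak, 8 were called lower in each 30-day culture than in the pre-culture. TBXT, MIXL1, EOMES, GSC, FOXA2, SOX17, GATA6 and FGF8 were called in both comparisons, where 0.432% of genes were called lower with bFGF and 0.486% with FGFC. Both comparisons share the pre-culture arrays, so the second is no independent repeat of the first. Between the 30-day cultures only 16 genes of the list were measured. TBXT passed the background filter through the pre-culture alone, where it was high, so the count is a description only. SOX17, an endoderm factor, was at -2.21 and -2.26 in the pre-culture, at -4.20 and -4.45 with bFGF and at -4.80 and -4.38 with FGFC. TBXT (Brachyury), the primitive streak factor, was at -4.39 and -4.34, then at -6.48 and -6.30 with bFGF and at -6.65 and -6.79 with FGFC. Between FGFC and bFGF SOX17 was not called. TBXT was not well above background on both arrays of either 30-day culture, so it could not be called there. The summed linear level of the whole list was 5.09 and 5.01 in the pre-culture, 5.13 and 4.96 with bFGF and 4.46 and 4.74 with FGFC.

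The other long-term systems of the study give the setting for these differences. These are 201B7 induced pluripotent cells on MEF (50 days, 10 ng/mL of FGF), H1 ESCs in MEF-conditioned medium (41 days, 5 ng/mL), H1 in E8 Medium (30 days, 100 ng/mL) and 253G1 induced pluripotent cells in E8 Medium (36 days, 100 ng/mL), each with 1 culture with bFGF and 1 with FGFC. Cell line, medium, dose and duration thus differed between the systems. KhES-1 had the smallest share of called probes, 0.302%, beside 2.45%, 1.4%, 1.45% and 1.23% in these 4 systems. LHX2 differed between FGFC and bFGF by -0.59, -0.41, 1.49 and 0.41 in the 4 systems in that order, beside -2.24 in KhES-1. FEZF1 differed by 0.0076, 0.63, 3.58 and 3.25, beside -1.58 in KhES-1, so that the E8 systems went the other way. FEZF1 was called higher in both E8 systems, where 0.603% (H1) and 0.27% (253G1) of genes were called higher, and LHX2 in H1 in E8. RAX differed by 0.23, 0.38, 0.67 and -0.60, DKK1 by 0.45, 0.14, -0.67 and -0.087, and DLK1 on its called probe by -0.18, -1.09, 0.43 and 1.03. In 201B7 on MEF, the other system with feeder cells, EMX2 and NR2F2 were called lower with FGFC as well, at -1.17 and -1.41, where 1.84% of genes were called lower.

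None of these differences between systems passed a test. With limma on the difference FGFC minus bFGF of each system, KhES-1 against the mean of the other 4, 0 of 42405 probes had an adjusted p under 0.05 (Benjamini-Hochberg), the smallest adjusted p was 0.9998, and 1546 had an unadjusted p under 0.05. KhES-1 minus the others was -2.46 ± 0.83 (SE) for LHX2, -3.44 ± 1.53 for FEZF1, -1.74 ± 0.51 for RAX and -1.76 ± 0.79 for the called probe of DLK1, each with limma's adjusted p of 0.9998. The single KhES-1 difference was assumed in this fit to vary like the other 4, and a missed threshold does not show that the systems were alike. For PAX6 the kept probe gave -0.88, 1.05, -1.70 and -0.29 in the other 4 systems, beside -1.79 in KhES-1, so H1 in E8 was close to it.

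**Figure D5:**
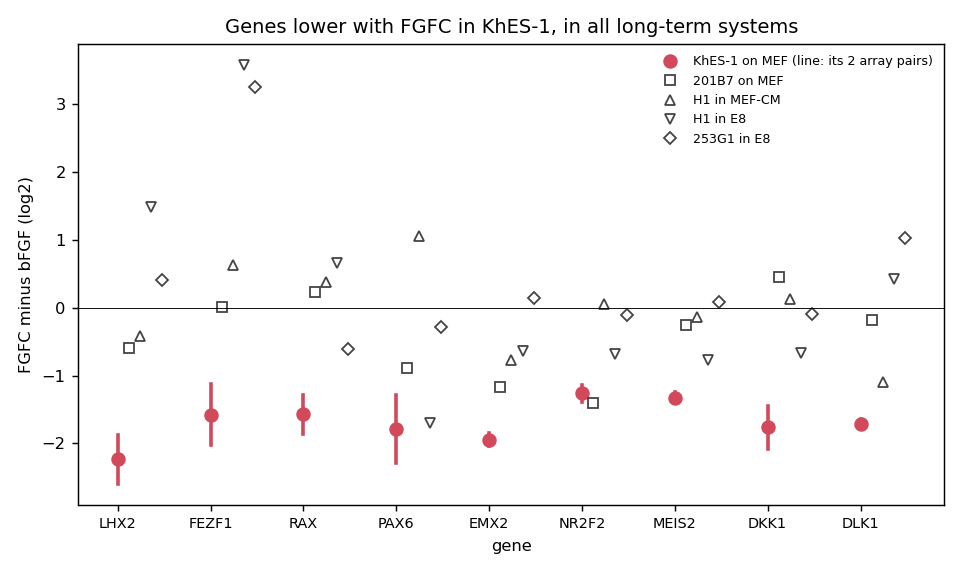
Difference FGFC minus bFGF (log2, y axis) of 9 genes that were called lower in KhES-1 (x axis), with a red dot for KhES-1, a red line between its 2 array pairs and open symbols for the other 4 long-term systems. KhES-1 is the lowest of the 5 systems for 8 of the 9 genes, the exception being NR2F2, where 201B7 on MEF is lower, and these genes were chosen for being lower in KhES-1.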

How the data were processed

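The authors deposited scanner output of Agilent's Feature Extraction 10.7.3.1 for 1-colour arrays, with a background-subtracted signal intensity for each spot, median signal and background intensities, and yes or no marks for outliers, saturation and signal well above background. A deposited table of the series holds the same intensities. Of 62976 spots 4259 control spots and all outlier spots were left out. Intensities were set to at least 1, taken to log2, averaged over the spots of each of 42405 probes, and reduced by the 75th percentile of these probe values on the array. The study's methods take that percentile over all measurements of a chip, and the percentile over spots was run as an alternative. A probe was well above background if 0.5 or more of its remaining spots carried the mark, and 0 spots were saturated. RefSeq accessions named 25715 probes and the study's supplementary tables a further 1320, and 15370 have no symbol.

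Replicate arrays were not averaged before calling. The named genes are LHX2, FEZF1 and DLK1, the 12 largest increases and decreases among called genes, called members of the lists and 7 pluripotency genes, by the kept probe. The members and lists were chosen with earlier results of these data known. "At least" folds set the bright mean against the dim culture's signal or the lowest probe level well above background, whichever was higher on each array. Single marked spots began at a higher signal than that level, so these folds are not strict lower bounds. Systems were compared with limma 3.58.1 in R 4.3.3 (lmFit, eBayes), p-values being adjusted over all probes by Benjamini-Hochberg, with duplicate arrays averaged. Calling and testing were tested on simulated data. Python 3.11.15 with pandas 2.3.3, numpy 2.4.6 and matplotlib 3.10.9 was used for the remaining steps. Alternatives were normexp correction, quantile normalization, the percentile over spots, other background filters, other array pairings, single arrays or systems left out, and the 4-day experiments added. Some list genes are not reported here by name, though the counts and medians include them. Precision is limited by the number of arrays.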

Additional observations from a re-analysis of the deposited data

How the results depend on the processing

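The count of 87 called probes (58 higher, 29 lower) depended on the processing. It was 4 (3 higher, 1 lower) with normexp correction, where 0 list members and 0 forebrain genes were called, compared with 8 and 6; the correction and its offset of 50 were changed together and the cause was not tested. It was 50 with quantile normalization, 23 higher and 54.0% lower against 33.3%, 356 (236 higher, 120 lower) with no background filter, 12 (5 and 7, or 58.3% lower) with all 4 arrays well above background, 57 (34 higher) with 2-fold in all 4 pairings and 231 (163 and 68) with 2-fold on the means. With 1 array left out it was 281 to 572, with 147 to 502 higher and 45 to 240 lower (12.2 to 61.3% lower), since fewer arrays then had to meet the rule. In these settings 8 to 13 list members were called, and 6 to 8 forebrain genes were called lower. Without FGFC array 2 the forebrain gene SP8 was also called, on the higher side. The 6 forebrain genes were called under quantile normalization and the percentile over spots. All 6 met 2-fold in all 4 pairings, so they had to be called with any array left out, which adds no further check. EMX2 was lost with a floor at background, and LHX2, FEZF1 and RAX alone met the rule on all 4 arrays. Of 27 named called genes, 26 were lost with normexp, 4 were lost with quantile normalization, HOXC6, LOC255187, TPH2 and LHX3, and 6 without FGFC array 1 or bFGF array 2, LOC284669, ACBD4, LHX3, MAB21L4, LOC648149 and MEIS2, and none reversed under any of these or under normexp.

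The comparison of systems had the same outcome in each of its alternatives. They included a fit that did not pair FGFC and bFGF within each system, each other system left out and the 4-day experiments added. Levels near background, where most called probes lie, have the lowest precision.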
